A study of Mus musculus with 3 samples.

Results

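*Tnmd*, *Scx*, *Mkx*, *Runx2*, *Sox9*, *Comp*, *Cilp*, *Cilp2*, *Thbs4* and *Mgp* are 10 of the 32285 genes in the count tables of healing mouse skin, and each is best known from tendon, ligament, cartilage or bone. Their symbols were matched to Ensembl gene identifiers, and their levels were followed by day and by cell class in 37460 cells. The genes were picked with their levels by day, their levels by class and their joint detection in Day 14 fibroblasts already known, so those values are a description and carry no test.

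Cells came from dorsal skin wounds of adult male mice of strain C57BL/6J, with 1 library for each of Days 3, 7 and 14 after injury and, per the study's methods, tissue pooled from several wounds and left unsorted. No genotype or treatment other than the strain and the wound is given for any of the groups, the number of mice behind a library is not given in the sources used here, and the wound is called incisional in the series text and excisional in the study's methods. In day order there were 5158, 22924 and 16611 barcodes and 38133650, 120940799 and 112713257 UMIs, a UMI (unique molecular identifier) being a tag that marks 1 captured RNA molecule near its 3′ end. Days 3 and 7 shared 43 barcodes, Days 7 and 14 shared 111, and Days 3 and 14 shared 19.

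Levels are given as CPM, the UMIs of a gene per 1000000 UMIs of the cell class in that library, each with an exact 95% interval that covers counting error only. Day and library cannot be told apart in this design, so a ratio between days compares 3 libraries and has no replicate check. UMIs are counted at the 3′ end and are not divided by transcript length, so levels of different genes are not ranked against each other.

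Fibroblast-like cells were taken as the clusters that carried the markers *Col1a1*, *Col1a2*, *Col3a1*, *Dcn*, *Lum*, *Pdgfra*, *Col6a1* and *Dpt*, with the 10 genes kept out of the clustering. They numbered 385 on Day 3 (8.83% of the kept cells), 5780 on Day 7 (29.5%) and 6473 on Day 14 (47.9%), and their median depth was 45643, 10400 and 10352 UMIs. Different clusters filled the class on different days: cluster 18 held 350 of the 385 cells of Day 3, clusters 6, 13 and 8 held 1638, 1220 and 1092 cells of Day 7, and clusters 2, 5 and 12 held 2223, 1418 and 1279 cells of Day 14. Cluster 19, led by *Slc26a7*, *Prlr* and *Wif1*, also carried fibroblast markers and was kept out by a threshold set after the clusters were seen, with 0.0917%, 0.316% and 5.37% of the cells in day order. Cluster 15, of a median of 1334.5 UMIs a cell, carried them too but had more markers of other classes among its leading genes, and it held 2.75%, 2.25% and 4.66% of the cells. A cluster that comes mostly from 1 library may be that library, and a change of the class between days is also a change of the clusters that make it up. Markers of macrophages, which share the tissue, summed to 69.4, 185 and 80.7 CPM inside the class over the 3 days, against 67931, 116248 and 141943 CPM for the 8 fibroblast markers.

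Tenocytes, the fibroblasts of tendon, are specified by the basic helix-loop-helix factor *Scx* and the homeobox factor *Mkx*, and their mature form carries the membrane protein tenomodulin, encoded by *Tnmd*. Cartilage depends on *Sox9* and bone on *Runx2*, a factor that also acts in hypertrophic cartilage. *Thbs4*, *Comp*, *Cilp* and *Cilp2* encode secreted matrix proteins of tendon, ligament and cartilage, and *Mgp* encodes matrix Gla protein, an inhibitor of calcification of soft tissue.

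In fibroblast-like cells *Tnmd*, *Mkx*, *Cilp*, *Thbs4* and *Mgp* were higher on Day 14 than on Day 7, *Runx2* was lower and *Sox9* differed by less than 2-fold. *Scx*, *Comp* and *Cilp2* stayed below 1 CPM in all 3 libraries, with *Scx* more than 2-fold higher on Day 14 on few UMIs. Of the 8 genes with at least 50 UMIs over both libraries, 6 were at least 2-fold higher on Day 14 than on Day 7, where 5.63% of the 13807 genes that met the same minimum were, and 1 was at least 2-fold lower, where 9.08% were. The median log2 ratio was 2.03 over those 8 genes and -0.18 over the 13807. *Scx* is the sixth of the higher genes, on 41 UMIs of Day 14. From Day 3 to Day 7, 4 of 7 genes with enough UMIs were at least 2-fold higher, against 10.2% of 12985 genes, and 0 were at least 2-fold lower, against 9.47%.

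**Figure D1:**
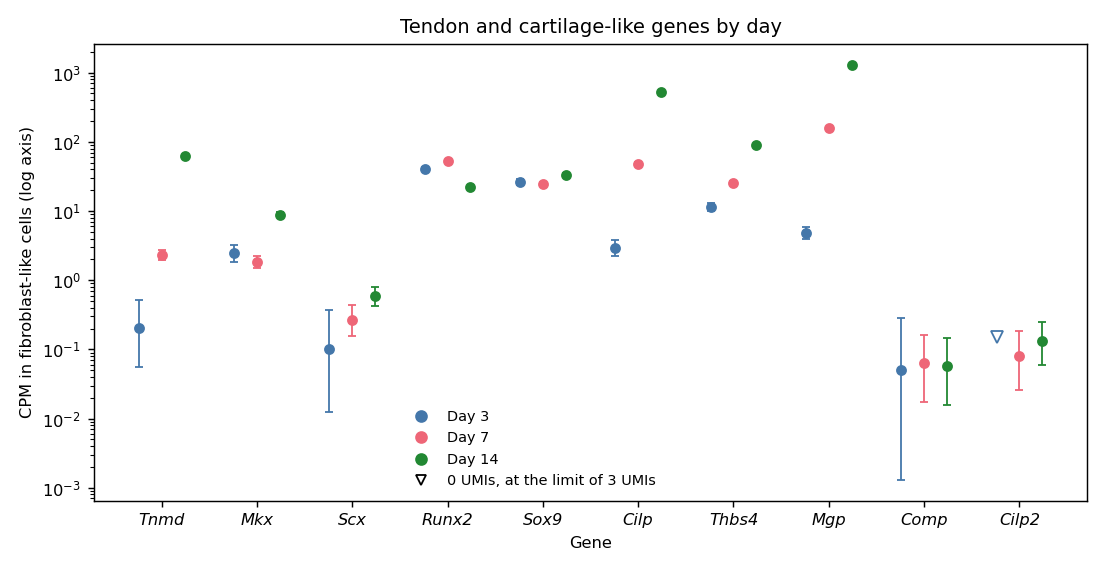
Level of each gene in fibroblast-like cells by day, in CPM on a log axis, with 1 library per day; bars are exact 95% Poisson intervals and the open triangle stands for 0 UMIs at the limit that 3 UMIs would give. *Tnmd* goes from 0.204 to 62.9 CPM and *Mgp* from 4.79 to 1292 CPM between Day 3 and Day 14, while *Scx*, *Comp* and *Cilp2* lie under 1 CPM throughout.

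Among the tendon genes, *Tnmd* (ENSMUSG00000031250, chrX:133850980-133865577, plus strand, mm10) had 4, 144 and 4351 UMIs in fibroblast-like cells on Days 3, 7 and 14. These are 0.204 CPM (0.0556 to 0.522), 2.29 CPM (1.93 to 2.69) and 62.9 CPM (61.1 to 64.8). The intervals of the 3 libraries did not overlap, and Day 14 over Day 7 gave a log2 ratio of 4.78 (4.54 to 5.03), the highest of the 8 genes for which it was formed. After thinning of each cell to 2000 UMIs, 29 of 5743 cells of Day 7 (0.505%) and 535 of 6438 cells of Day 14 (8.31%) had a *Tnmd* UMI, and without thinning 1.42% and 18.8% had one. UMIs of the gene also lay in macrophage-like cells, which should lack it. Whether RNA free in the suspension or doublets gave these UMIs was not tested. The thinned share there was 0.0158% on Day 7 and 0.197% on Day 14, at unthinned median depths of 2729 and 3695 UMIs. *Tnmd* was above its level in macrophage-like cells on both days, and the share was higher on Day 14 in both classes.

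Because *Tnmd*, *Cilp* and *Thbs4* moved most between days among the genes with a promoter in the RefSeq table of build GRCm38.p6, which holds 5 of the 10 genes, the bases before their starts were read for the factors named above. Capitals mark matches on either strand to the E-box CANNTG bound by basic helix-loop-helix factors such as *Scx*, to the RUNX core TGTGGT, to the SOX core ACAAAG and to the TATA box TATAAA. The windows are chrX:133850758-133850979 (plus strand), chr9:65264930-65265179 (plus strand) and chr13:92794819-92795068 (minus strand).
Tnmd: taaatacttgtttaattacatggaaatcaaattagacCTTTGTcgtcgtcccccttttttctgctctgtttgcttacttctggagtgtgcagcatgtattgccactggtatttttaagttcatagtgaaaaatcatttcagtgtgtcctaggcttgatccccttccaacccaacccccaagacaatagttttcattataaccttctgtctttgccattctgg
Cilp: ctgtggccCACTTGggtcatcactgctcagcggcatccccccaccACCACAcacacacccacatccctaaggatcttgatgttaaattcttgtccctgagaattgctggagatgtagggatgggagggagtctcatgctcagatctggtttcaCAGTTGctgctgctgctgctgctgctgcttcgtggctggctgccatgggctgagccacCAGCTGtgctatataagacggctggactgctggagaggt
Thbs4: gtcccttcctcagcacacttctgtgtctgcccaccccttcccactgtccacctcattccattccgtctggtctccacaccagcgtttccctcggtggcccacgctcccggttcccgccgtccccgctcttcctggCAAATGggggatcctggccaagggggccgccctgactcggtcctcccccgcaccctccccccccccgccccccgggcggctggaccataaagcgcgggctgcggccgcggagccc
The 222 bases before *Tnmd* held 0 E-boxes and 1 SOX core in reverse, where 62.4% of 32841 promoter windows of that length held an E-box and 4911 of them a SOX core. The 250 bases before *Cilp* held 3 E-boxes and 1 RUNX core in reverse, and those before *Thbs4* held 1 E-box, where 66.2% of windows of 250 bases held an E-box and 14.0% a RUNX core. None of the 3 windows held the exact letters TATAAA, which 12.4% of windows of 250 bases and 10.1% of windows of 222 bases held. Other spellings of a TATA box were not searched, and the *Cilp* window holds the letters tatataa near its end. These matches are letters in a window and not measured binding sites.

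*Mkx* (ENSMUSG00000061013, chr18:6934518-7004780, minus strand) had 48, 116 and 610 UMIs, or 2.45 CPM (1.80 to 3.25), 1.84 CPM (1.52 to 2.21) and 8.82 CPM (8.14 to 9.55). Days 3 and 7 did not differ beyond counting error, and Day 14 was higher than Day 7 by a log2 ratio of 2.26 (1.97 to 2.56). The annotated gene AC148004.2 overlaps *Mkx* on the same strand, so reads that both could claim are uncertain.

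*Scx* (ENSMUSG00000034161, chr15:76457452-76459458, plus strand), the factor that marks tendon progenitors, went against the tendon label of the gene set. It had 2, 17 and 41 UMIs in fibroblast-like cells, or 0.102 CPM (0.0123 to 0.368), 0.270 CPM (0.157 to 0.432) and 0.593 CPM (0.426 to 0.804). Day 14 over Day 7 gave a log2 ratio of 1.14, with an interval of 0.29 to 2.04 that reaches well under a doubling. At 2000 UMIs a cell, 4 of 6438 fibroblast-like cells (0.0621%) of Day 14 had a *Scx* UMI beside 0 of 2543 macrophage-like cells, a number of cells that allows a share of up to 0.118% and so cannot tell the classes apart. Without thinning, *Scx* stood at 0.593 CPM in fibroblast-like cells beside 0.245 CPM (0.0505 to 0.716) in macrophage-like cells of the same library, with overlapping intervals. Epithelial cell-like cells of Day 14 held 15 *Scx* UMIs, or 3.06 CPM (1.71 to 5.05). The gene lies inside *Bop1*, which is on the opposite strand.

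Of the factors of cartilage and bone, *Runx2* (ENSMUSG00000039153, chr17:44495987-44814797, minus strand) was the 1 member at least 2-fold lower on Day 14 than on Day 7. In day order it had 40.6 CPM (37.8 to 43.5), 53.0 CPM (51.2 to 54.9) and 21.9 CPM (20.8 to 23.0). Day 7 was the highest library, and Day 14 over Day 7 gave a log2 ratio of -1.28 (-1.36 to -1.19). At 2000 UMIs a cell, 8.01% of fibroblast-like cells of Day 7 and 3.67% of those of Day 14 had a *Runx2* UMI, beside 196 of 6326 and 22 of 2543 macrophage-like cells. The annotation n-R5s27 overlaps *Runx2* on the same strand, and *Supt3* and antisense genes of *Runx2* overlap it on the other.

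*Sox9* (ENSMUSG00000000567, chr11:112782224-112787760, plus strand) differed by less than 2-fold between days, at 26.3 CPM (24.0 to 28.6), 24.9 CPM (23.7 to 26.2) and 33.5 CPM (32.1 to 34.9). Days 3 and 7 overlapped, and Day 14 over Day 7 gave a log2 ratio of 0.43 (0.33 to 0.52). In macrophage-like cells *Sox9* had 0.0831, 1.08 and 2.61 CPM.

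Among the matrix genes, *Cilp* (ENSMUSG00000042254, chr9:65265180-65280605, plus strand), cartilage intermediate layer protein, had 58, 3061 and 36278 UMIs in fibroblast-like cells, or 2.96 CPM (2.25 to 3.82), 48.6 CPM (46.9 to 50.3) and 525 CPM (519 to 530.1). The 58 UMIs of Day 3 lay in 9 of 385 cells, so that level rests on few cells. The libraries did not overlap, with a log2 ratio of 4.04 (3.66 to 4.44) for Day 7 over Day 3 and of 3.43 (3.38 to 3.49) for Day 14 over Day 7. The former was 4.65 where cells of at most 5% mitochondrial UMIs were kept. The thinned share of fibroblast-like cells with a *Cilp* UMI was 4.68% on Day 7 and 35.1% on Day 14, beside 0.332% and 3.93% of macrophage-like cells.

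*Mgp* (ENSMUSG00000030218, chr6:136872435-136875823, minus strand) had 94, 10009 and 89316 UMIs, or 4.79 CPM (3.87 to 5.86), 159 CPM (156 to 162) and 1292 CPM (1283 to 1300.2). On Day 3 these UMIs lay in 31 cells. The log2 ratios were 5.05 (4.76 to 5.36) for Day 7 over Day 3 and 3.02 (2.99 to 3.05) for Day 14 over Day 7, and the first of these was 4.34 where cells of up to 20% mitochondrial UMIs were kept. At 2000 UMIs a cell, 15.3% of fibroblast-like cells of Day 7 and 46.3% of those of Day 14 had an *Mgp* UMI, against 1.26% and 6.17% of macrophage-like cells. *Mgp* was thus found in more fibroblast-like cells than any other member on Day 14, thinned or not, which does not rank the levels of the genes.

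*Thbs4* (ENSMUSG00000021702, chr13:92751590-92794818, minus strand), thrombospondin 4 of tendon and muscle matrix, had 225, 1620 and 6158 UMIs, those of Day 3 in 27 cells. Its levels were 11.5 CPM (10.0 to 13.1), 25.7 CPM (24.5 to 27.0) and 89.1 CPM (86.8 to 91.3). The libraries did not overlap, and the log2 ratios were 1.16 (0.96 to 1.37) for Day 7 over Day 3 and 1.79 (1.71 to 1.87) for Day 14 over Day 7, with 1.78 in place of 1.16 where called doublets were kept. The thinned share of cells was 2.51% on Day 7 and 5.87% on Day 14, beside 0.126% and 0.472% of macrophage-like cells. Without thinning, 6.26% and 11.7% of fibroblast-like cells had a *Thbs4* UMI.

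*Comp* (ENSMUSG00000031849, chr8:70373558-70382066, plus strand), the cartilage oligomeric matrix protein and the closest relative of *Thbs4* in the set, was hardly detected. It had 1, 4 and 4 UMIs in fibroblast-like cells, and its 0.0510, 0.0635 and 0.0578 CPM were no higher than the 0.416, 0.271 and 0.163 CPM of macrophage-like cells. *Cilp2* (ENSMUSG00000044006, chr8:69880369-69887687, minus strand), the paralog of *Cilp*, had 0, 5 and 9 UMIs. The 0 UMIs of *Cilp2* on Day 3 allow up to 0.153 CPM by the limit of 3 UMIs and up to 0.188 CPM by the exact interval, and 0.0793 CPM (0.0258 to 0.185) and 0.130 CPM (0.0595 to 0.247) were found on Days 7 and 14. No ratio between days was formed for *Comp* or *Cilp2*.

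Cell classes other than fibroblasts held some of the genes at like or higher levels. Of the 8 members with enough UMIs on Day 14, 5 were at least 2-fold higher in fibroblast-like cells than in all other cells of the library, against 12.8% of 14374 genes, and 0 were at least 2-fold lower, against 26.6%. The log2 ratios were 3.69 (3.44 to 3.95) for *Tnmd*, 3.44 (3.25 to 3.63) for *Thbs4*, 3.37 (3.32 to 3.42) for *Mgp*, 3.26 (3.19 to 3.34) for *Cilp* and 2.58 (2.12 to 3.07) for *Mkx*. With called doublets kept these 5 ratios were lower, at 2.10, 2.03, 1.90, 1.86 and 1.91. That setting also left 1842 Day 14 cells of clusters led by fibroblast markers outside the class, beside 1355 without it. The part of this in the lower ratios was not tested. The other 3 genes stayed under 2-fold: *Runx2* stood at 0.69 (0.53 to 0.86), *Sox9* at -0.26 (-0.36 to -0.15) and *Scx* at -0.42 (-1.20 to 0.40). The other cells include the unnamed clusters, and 123 of their 375 *Runx2* UMIs came from cluster 19. *Runx2* passed 2-fold, for 6 genes in place of 5, with the unnamed clusters of fibroblast markers joined to the class (1.24), with classes set per cell (1.44) and with median-of-ratios scaling (1.06). The *Sox9* ratio turned to 0.10 with median-of-ratios scaling and to 0.07 with the mean CPM per cell, and the *Mgp* ratio was 0.68 where cells of up to 20% mitochondrial UMIs were kept, a setting that left 2867 Day 14 cells of clusters led by fibroblast markers outside the class, beside 1355 in the values above.

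For *Sox9* and *Mgp* the ratio to all other cells differed in direction between libraries. For *Sox9* this rests on the Day 14 value of -0.26, which turned to 0.10 and 0.07 with the scalings named above. The libraries also held different other cells, whose part in these differences of direction was not tested. The *Mgp* level of fibroblast-like cells itself went from 4.79 to 159 and 1292 CPM. *Sox9* was higher in fibroblast-like than in all other cells by a log2 ratio of 7.69 (5.83 to 10.74) on Day 3, with 2 UMIs in the other cells, and by 2.39 (2.16 to 2.62) on Day 7. Epithelial cell-like cells numbered 1, 56 and 733 in day order and held 81 of the 177 *Sox9* UMIs of the other cells on Day 7 and 901 of 1111 on Day 14. *Mgp* was lower in fibroblast-like cells on Day 3, by -1.80 (-2.15 to -1.45), and higher on Day 7, by 1.72 (1.65 to 1.80). The Day 3 value rests on 3 pericyte-like cells, which held 257 of the 261 *Mgp* UMIs of the other cells, while macrophage-like cells of that library had 0.249 CPM. On Day 7, 6 of 7 members with enough UMIs were at least 2-fold higher in fibroblast-like cells, against 21% of 13983 genes, and on Day 3 it was 3 of 5, against 29.2% of 11983 genes.

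**Figure D2:**
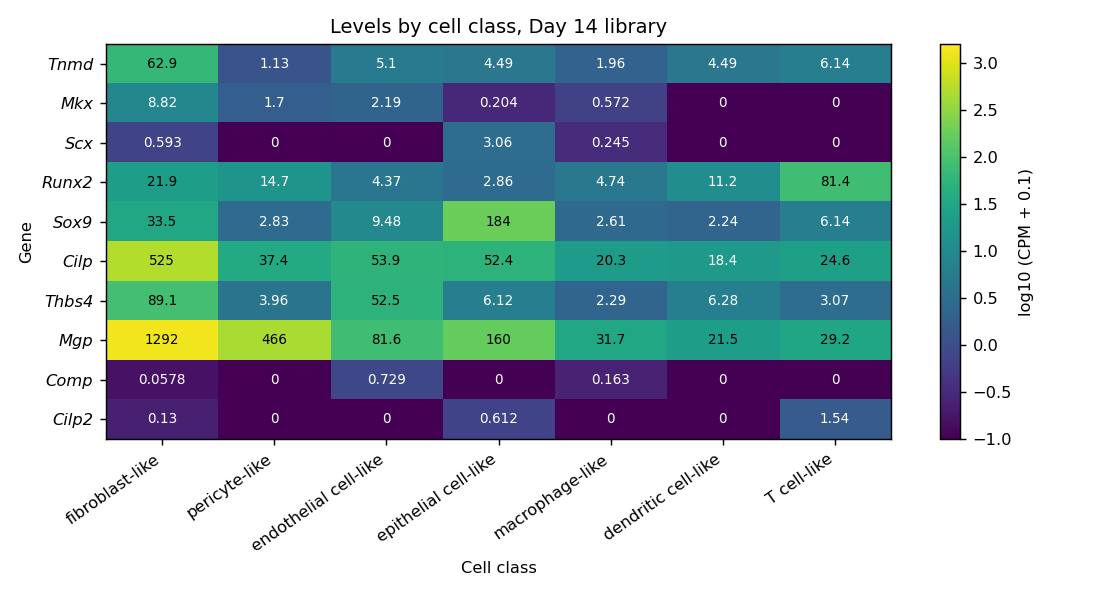
CPM of each gene (printed in the cells, shaded by log10 of CPM + 0.1) in 7 cell classes of the Day 14 library; classes of fewer than 50 cells and unnamed clusters are not drawn. *Tnmd*, *Mkx*, *Cilp*, *Thbs4* and *Mgp* peak in fibroblast-like cells, *Sox9* in epithelial cell-like cells at 184 CPM and *Runx2* in T cell-like cells at 81.4 CPM.

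*Sox9*, which also acts in hair follicles, was highest in epithelial cell-like cells, where Day 7 had 163 CPM (130 to 203) and Day 14 had 184 CPM (172 to 196). On Day 14 that class held 901 *Sox9* UMIs in 29.2% of 733 cells, and epithelial markers summed to 82.4 CPM inside the fibroblast-like class, whose part in the *Sox9* level of that class was not tested. *Runx2* in T cell-like cells, with 94.0 CPM (71.5 to 121) on Day 7 and with 81.4 CPM (61.0 to 106) by Day 14, was higher than in fibroblast-like cells of the same libraries. Neutrophil-like cells of Days 3 and 7 had 93.6 CPM (77.0 to 113) and 73.5 CPM (59.3 to 90.0) of *Runx2*, and in dendritic cell-like cells it had 56.2, 65.1 and 11.2 CPM. *Runx2* was lower on Day 14 than on Day 7, with intervals that did not overlap, in dendritic cell-like cells, in macrophage-like cells, at 4.74 CPM (3.60 to 6.13) against 15.1 CPM (13.6 to 16.7), and in epithelial cell-like cells, at 2.86 CPM (1.56 to 4.79) against 20.1 CPM (9.66 to 37.0). The intervals overlapped in pericyte-like, T cell-like and endothelial cell-like cells. As in the fibroblast-like class, different clusters filled the macrophage-like class on the 2 days: cluster 0 held 2867 of its cells on Day 7 and 104 on Day 14, and cluster 4 held 878 and 1378. The epithelial cell-like value of Day 7 rests on 10 *Runx2* UMIs in 56 cells.

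*Mgp* was also found in cells of vessels. In pericyte-like cells it had 997 CPM (941 to 1055) on Day 7, above the 159 CPM of fibroblast-like cells in that library, and 466 CPM (435 to 499) on Day 14, below their 1292 CPM. Endothelial cell-like cells had 118 CPM (102 to 135) and 81.6 CPM (67.2 to 98.2) on the same days. The order of the classes for *Mgp* thus turned over between the libraries of Day 7 and Day 14. Endothelial cell-like cells also held 72 *Thbs4* UMIs on Day 14, or 52.5 CPM (41.1 to 66.1), in 3.81% of their cells.

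Within Day 14 fibroblast-like cells the genes were spread unevenly over clusters that were made without them. Cluster 12, led by *Gal*, *Wfdc12*, *Cdh4*, *Ppp1r14a* and *Coch*, made up 19.8% of the cells and held 52.1% of the *Tnmd* UMIs and 59.3% of the *Mkx* UMIs. Cluster 2, led by *Hmcn2*, *Fbln7* and *Eln*, made up 34.3% of the cells and held 72.6% of the *Thbs4* UMIs, 59.5% of the *Cilp* UMIs and 52.0% of the *Mgp* UMIs. Cluster 5, led by *Gdf10*, *Zim1* and *Cygb*, made up 21.9% of the cells and held a further 38.7% of the *Mgp* UMIs. Its *Mgp* level of 2267 CPM was above that of cluster 2.

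In cluster 12 *Tnmd* was at 193 CPM (186 to 202) and *Mkx* at 30.9 CPM (27.8 to 34.2), while *Sox9*, *Thbs4* and *Mgp* were below their levels in the whole class. *Sox9* had 8.27 CPM (6.71 to 10.1) there, *Thbs4* 4.86 CPM (3.68 to 6.30) and *Mgp* 68.0 CPM (63.4 to 72.9). Cluster 2 had less *Tnmd* and more *Thbs4* and *Mgp* than cluster 12, with 44.8 CPM (42.3 to 47.4) of *Tnmd*, 168 CPM (163 to 173) of *Thbs4* and 1748 CPM (1732 to 1764) of *Mgp*. *Cilp* was present in both, at 271 CPM (262 to 281) in cluster 12 and 811 CPM (801 to 822) in cluster 2. *Scx*, which acts with *Mkx* in tendon, had 12 UMIs in cluster 12, or 1.02 CPM (0.529 to 1.79).

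*Runx2* and *Sox9* were highest in cluster 27, a group of 303 cells led by *Col18a1*, *Cldn1* and *Ptn*, at 70.4 CPM (61.6 to 80.1) and 106 CPM (94.9 to 118). *Mgp* was also high there, at 1680.0 CPM (1636 to 1725), and *Tnmd* was at 3.96 CPM. Clusters 8 and 23, led by *Edn1* and *Akr1c18* and by *Smpd3* and *Cxcl13*, were low in nearly every member, with *Tnmd* at 6.53 and 2.43 CPM and *Cilp* at 30.1 and 25.3 CPM.

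A finer division of the Day 14 fibroblast-like cells into 16 sub-clusters, again made without the members, showed how far the levels spread. *Tnmd* ran from 1.44 CPM in sub-cluster S4 to 306 CPM (290 to 323) in S10, with a median of 20.2 CPM, and was next highest in S5, S13 and S6 at 254, 171 and 113 CPM. *Mkx* was highest in S6 at 36.7 CPM (31.8 to 42.1), then in S13 at 30.9 CPM on 31 UMIs, with overlapping intervals. S6 is led by *Gal*, *Gpha2* and *Wfdc12*, S5 by *Lgr5*, *Adamts18* and *Lepr*, and S13 by *Coch* and *Ifitm1*. S10 is led by *C6* and the globin gene *Hba-a1*, the latter a sign of red cell RNA, and the part of that RNA in the *Tnmd* level was not tested.

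*Cilp* and *Thbs4* peaked together in S2, which is led by the elastic fibre gene *Eln*, *Col8a1* and *Fxyd6*, at 1659.8 CPM (1633 to 1687) and 402 CPM (389 to 415). *Mgp* and *Sox9* peaked together in S8, led by *Cldn1*, *Itga6* and *Sbspon*, at 3589 CPM (3526 to 3653) and 90.0 CPM (80.3 to 101). *Runx2* was highest in S12, at 58.1 CPM (50.1 to 67.0), where *Sox9*, at 68.5 CPM (59.8 to 78.1), and *Thbs4*, at 254 CPM (237 to 272), were also next to their highest. S6, the sub-cluster with the most *Mkx*, had the lowest *Runx2*, *Sox9* and *Mgp* of all 16, at 5.27, 2.54 and 23.6 CPM. The highest *Scx*, 14.8 CPM on 7 UMIs, fell in S15, a set of 45 cells led by the myeloid genes *Cd74* and *Pf4*.

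**Figure D3:**
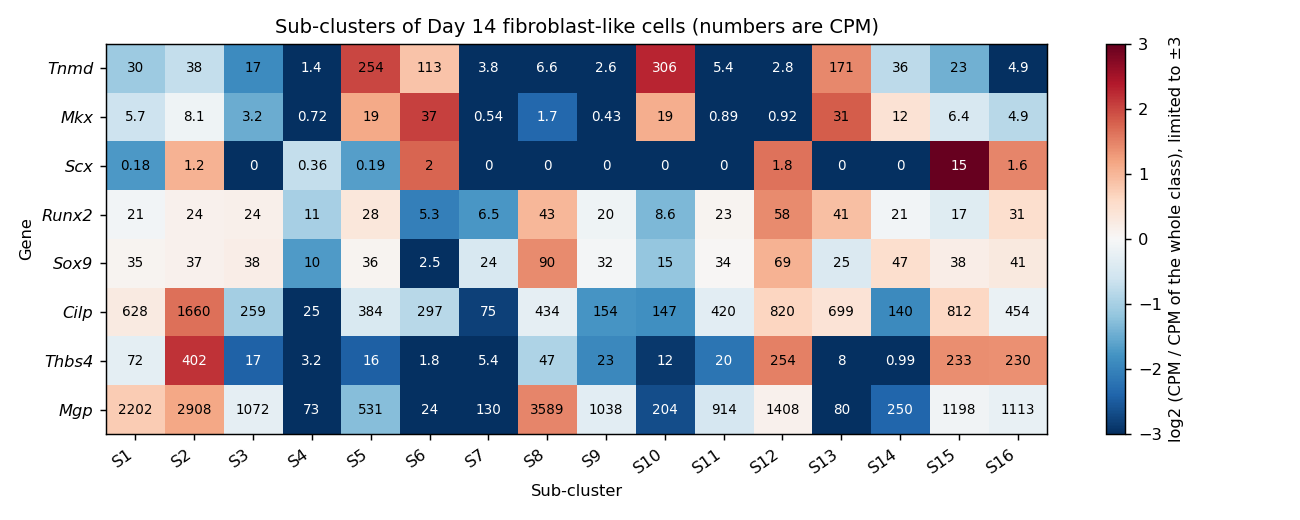
CPM of 8 genes in the 16 sub-clusters of Day 14 fibroblast-like cells, printed in each cell and coloured by log2 of the ratio to the whole class, limited to 3 in either direction; *Comp* and *Cilp2*, at 4 and 9 UMIs in all, are not drawn. *Tnmd* and *Mkx* are high in S5, S6, S10 and S13, where *Thbs4* and *Mgp* are below the level of the whole class.

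Across the 16 sub-clusters, log2(CPM + 1) of *Tnmd* and *Mkx* had a Pearson r of 0.93, the highest of the 21 pairs of the 7 genes with at least 200 UMIs in the class. *Sox9* and *Mgp* had 0.82, *Runx2* and *Sox9* 0.80, *Thbs4* and *Mgp* 0.79, and *Cilp* and *Thbs4* 0.72. *Tnmd* had -0.30 with *Mgp* and -0.31 with *Sox9*. The sub-clusters come from 1 library and share its free RNA and depth, so these values describe 16 points that are not independent.

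Clusters present on both days were also compared, though a shared cluster label does not show that the cells were alike. Clusters 2 and 12, with 27.4% and 52.1% of the *Tnmd* UMIs of Day 14, had 84 and 28 cells on Day 7 and were left out. Clusters 5, 8 and 20 had at least 100 cells in both libraries, and *Tnmd* was higher on Day 14 in each, by log2 ratios of 4.55 (3.66 to 5.62), 5.94 (3.36 to 11.29) and 2.79 (2.30 to 3.29). The cluster 8 value rests on 1 UMI of Day 7, and *Tnmd* reached 6.53 CPM there on Day 14. In that library the other named classes of at least 50 cells ran from 1.13 CPM (pericyte-like) to 6.14 CPM (T cell-like, 1.67 to 15.7). *Cilp* was higher in clusters 5 and 8, by 1.87 (1.77 to 1.98) and 2.48 (2.01 to 2.97), and by only 0.26 (0.01 to 0.50) in cluster 20. In cluster 8 *Cilp* went from 5.41 to 30.1 CPM. The latter lies within the Day 14 range of those other classes, from 18.4 CPM (dendritic cell-like) to 53.9 CPM (endothelial cell-like). *Mgp* was higher in each, by 1.53 (1.48 to 1.58), 0.60 (0.41 to 0.78) and 1.10 (0.88 to 1.32), all below the 3.02 of the whole class. In cluster 8 *Mgp* reached 86.1 CPM on Day 14. That too lies within the range of those other classes, from 21.5 CPM (dendritic cell-like) to 466 CPM (pericyte-like). *Mkx* stood at 0.84 (0.04 to 1.74), -0.01 (-2.19 to 1.89) and 1.97 (0.94 to 2.96), below the 2.26 of the whole class in each, on 8 and 4 UMIs in cluster 8. Ratios within a cluster were not formed for Day 7 over Day 3. Cluster 18, the main cluster of Day 3, made up 8.10% of the fibroblast-like cells of Day 7. It held 3.07% of their *Cilp* UMIs and 3.67% of their *Mgp* UMIs, below its share of the cells. For other members it held more than that share. These were *Tnmd* (14.6%), *Thbs4* (9.01%), *Mkx* (12.9%), *Sox9* (13.6%) and *Runx2* (19.7%).

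*Thbs4*, *Runx2* and *Sox9* did not move alike in the shared clusters. *Thbs4* was higher on Day 14 in cluster 5, by 1.87 (1.57 to 2.19), and lower in cluster 20, by -4.30 (-6.58 to -2.74) on 370 and 3 UMIs. *Runx2* was lower in clusters 20 and 8, by -2.16 (-2.77 to -1.61) and -0.67 (-1.17 to -0.20), and stood at 0.08 (-0.23 to 0.41) in cluster 5. *Sox9* was over 2-fold higher on Day 14 in cluster 5, by 1.28 (0.94 to 1.63), against 0.43 in the whole class, and stood at 0.40 (0.05 to 0.74) and 0.25 (-0.21 to 0.68) in clusters 8 and 20. Cluster 20, led by *Prss35*, *Col7a1* and *Crabp1* with the smooth muscle genes *Acta2* and *Tagln* among its leading genes, held 67 of the 144 *Tnmd* UMIs of Day 7 fibroblast-like cells in 10.6% of the cells. It also had the highest *Runx2* of the Day 7 fibroblast clusters, at 114 CPM, and 55.6 CPM of *Thbs4*.

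**Figure D4:**
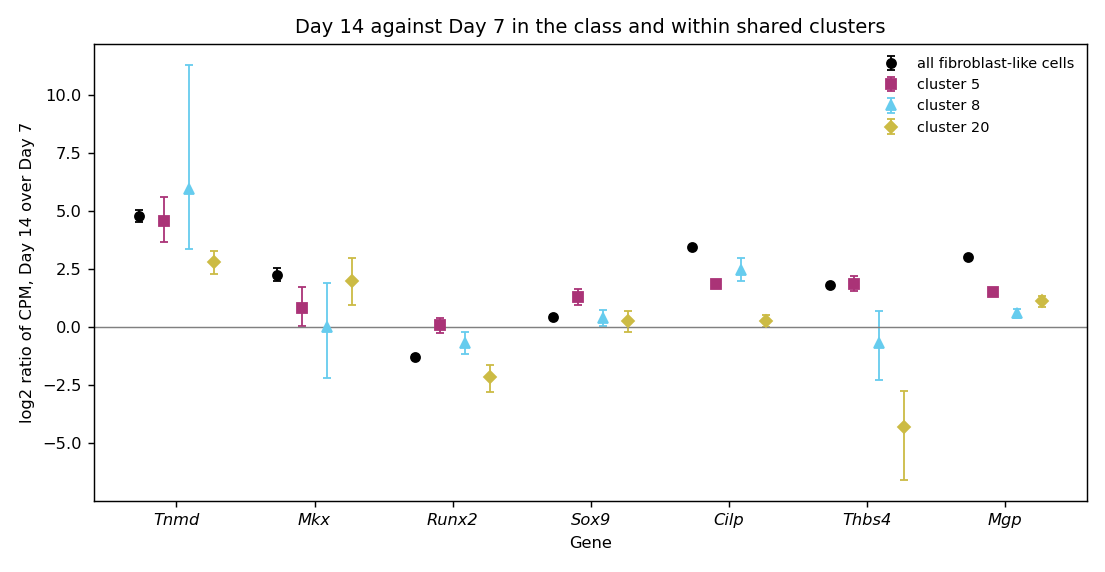
Log2 ratio of CPM, Day 14 over Day 7, in all fibroblast-like cells and within clusters 5, 8 and 20, with exact 95% intervals for counting error; each day is 1 library. *Tnmd* and *Mgp* lie above 0 in all 4 sets, and *Thbs4* lies above 0 in cluster 5 and below 0 in cluster 20.

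Joint detection was read in 6438 Day 14 fibroblast-like cells thinned to 2000 UMIs, with 35 shallower cells left out. The number of cells with a UMI of both genes was set against the number expected from the product of the shares, for the 20 of 45 pairs in which at least 5 cells were expected. Of these pairs, 4 were at least 1.5 times the expected number, where 3.59% of 36059507 pairs of all genes were, and 5 were at or below 1/1.5 of it, where 6.85% were.

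*Tnmd* and *Mkx* were found together in 20 cells where 8.64 were expected, a ratio of 2.31 (1.41 to 3.57). *Cilp* and *Thbs4* were together in 317 cells where 133 were expected, a ratio of 2.39 (2.14 to 2.66). *Sox9* and *Thbs4* reached 1.85 (1.31 to 2.52) and *Thbs4* and *Mgp* 1.77 (1.59 to 1.98). *Runx2* and *Sox9*, with an r of 0.80 across the sub-clusters, were near expectation in single cells, at 0.985 (0.525 to 1.68). The pairs above expectation thus join *Mkx* with *Tnmd*, and *Thbs4* with *Cilp*, *Sox9* and *Mgp*.

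Pairs that cross these sets were below expectation or near it. *Tnmd* and *Thbs4* stood at 0.541 (0.315 to 0.866), *Tnmd* and *Sox9* at 0.602 (0.357 to 0.950), and *Tnmd* and *Mgp* at 0.634 (0.540 to 0.740). *Mkx* and *Mgp* stood at 0.665 (0.455 to 0.938), and *Mkx* and *Thbs4* at 0.655 (0.179 to 1.68) on only 4 cells. *Tnmd* and *Cilp* were near expectation, at 0.959 (0.826 to 1.11). With the expected number formed within each of the 16 sub-clusters, 0 pairs were at least 1.5 times it and 0 were at or below 1/1.5 of it. Among the pairs above, *Tnmd* and *Mkx* then stood at 1.10, *Thbs4* and *Mgp* at 1.11, *Sox9* and *Thbs4* at 1.43 and *Cilp* and *Thbs4* at 1.46. Of those below, *Tnmd* and *Mgp* stood at 1.01, *Mkx* and *Mgp* at 1.00, *Mkx* and *Thbs4* at 0.886, *Tnmd* and *Thbs4* at 0.817 and *Tnmd* and *Sox9* at 0.779.

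**Figure D5:**
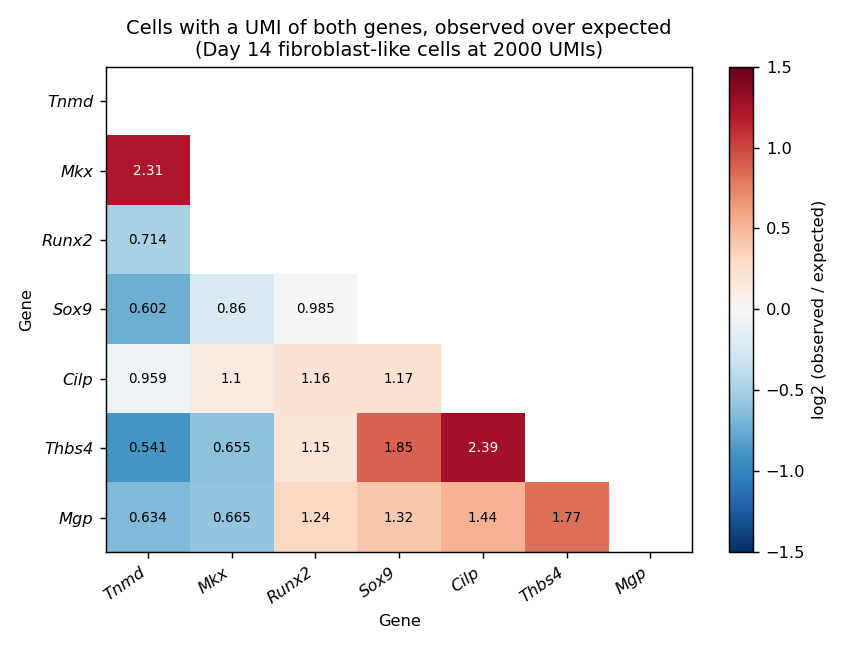
Cells with a UMI of both genes over the number expected from the product of the shares, in Day 14 fibroblast-like cells at 2000 UMIs, coloured on a log2 scale, for pairs with at least 5 expected cells (the others are blank). The highest ratios are *Cilp* with *Thbs4* at 2.39 and *Tnmd* with *Mkx* at 2.31, and the lowest is *Tnmd* with *Thbs4* at 0.541.

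Splitting the same cells by a *Tnmd* UMI gave 535 Tnmd-positive and 5903 Tnmd-negative cells. For the members this gives the joint detection with *Tnmd* above in another form, and is not a separate result. *Mkx*, at 22.4 against 7.28 CPM, was the 1 member at least 2-fold higher in the positive cells, with a log2 ratio of 1.62 (0.90 to 2.29), where 1.57% of 9568 genes were. *Thbs4*, at 37.4 against 86.7 CPM, and *Mgp*, at 650.5 against 1319 CPM, were at least 2-fold lower, with -1.21 (-1.71 to -0.76) and -1.02 (-1.13 to -0.91), where 6.63% of genes were. *Runx2*, *Sox9* and *Cilp* differed by less than 2-fold. *Scx* had 0 UMIs in the positive cells and 4 in the negative ones, too few for a ratio.

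Outside the members, the gene with the highest ratio in Tnmd-positive cells was *Coch*, encoding cochlin, at 206 against 7.88 CPM (log2 ratio 4.71, 4.35 to 5.07). *Lgr5*, a receptor for R-spondins, followed at 101 against 24.1 CPM (2.06, 1.73 to 2.39), and *Col11a1*, a collagen chain of cartilage and tendon, at 73.8 against 18.7 CPM (1.98, 1.59 to 2.36). The genes next in order were *Ctla2a*, *Fgfr2*, *Cdh4*, *Bcl11b*, *Gal* and *Robo2*, with log2 ratios from 1.88 down to 1.44. None of these was on the lists of tendon, cartilage or bone genes. *Fmod*, encoding the tendon proteoglycan fibromodulin, was the tenth, at 50.5 against 18.6 CPM (1.44, 0.98 to 1.87).

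Tendon and ligament genes as a list did not follow *Tnmd* between days. Of 20 such genes, 16 had enough UMIs in fibroblast-like cells, and 4 were at least 2-fold higher on Day 14 than on Day 7, 3 were lower and 9 were neither, where 5.63% and 9.08% of all genes tested were higher and lower. Their median log2 ratio was -0.00, beside -0.18 over all genes. *Fmod* was higher, at 21.5 against 4.78 CPM (log2 ratio 2.17, 1.99 to 2.36), and so was *Kera*, encoding the cornea and tendon proteoglycan keratocan, at 10.5 against 0.476 CPM (4.46, 3.94 to 5.04). *Tnc*, encoding tenascin C, was lower, at 171 against 732 CPM (-2.10, -2.13 to -2.07), and so was *Col12a1*, at 160.0 against 601 CPM (-1.91, -1.94 to -1.88). *Chad* and *Gdf5* had 0 UMIs in the fibroblast-like cells of Days 7 and 14.

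Cartilage genes were mostly at or near 0. Of 21, 12 had too few UMIs for a ratio between Days 7 and 14, 4 were at least 2-fold higher, 2 were lower and 3 were neither, with a median log2 ratio of 0.94 over the 9, beside all-gene shares of 5.63% higher and 9.08% lower. The chondrocyte markers *Col2a1*, *Acan*, *Col9a1*, *Matn1* and *Hapln1* had 0 UMIs on Day 3 and summed to 0.460 CPM on Day 7 and 1.75 CPM on Day 14, with *Matn1* at 0 in all 3 libraries and *Col2a1* at 4 and 3 UMIs. *Acan*, encoding aggrecan, had 0.349 and 1.49 CPM (log2 ratio 2.09, 1.42 to 2.83). *Prg4*, the lubricin of joint surfaces, had 13456, 7126 and 1040 UMIs in day order and 686 and 113 CPM on Days 3 and 7, a log2 ratio of -2.91 (-3.01 to -2.82) for Day 14 over Day 7.

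Bone and mineral genes, of which 17 were listed, had 8 with enough UMIs, with 2 higher, 2 lower and 4 neither on Day 14 and a median log2 ratio of 0.14, where 5.63% of all genes were higher and 9.08% lower. *Gas6*, a secreted Gla protein like *Mgp*, was higher, at 289.6 against 136 CPM (log2 ratio 1.09, 1.05 to 1.13). *Ggcx* and *Vkorc1*, which take part in making the Gla residues of such proteins, stood at -0.16 and 0.85. *Spp1*, encoding osteopontin, was lower, at 6.97 against 289 CPM (-5.37, -5.51 to -5.24), and *Enpp1*, which makes the mineral inhibitor pyrophosphate, was lower at -2.31 (-2.47 to -2.15).

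Most relatives of the members differed by less than 2-fold between Days 7 and 14. Among 9 of them 8 were measured well enough, 1 was higher (*Sox8*, at 0.868 CPM), 0 were lower and 7 were neither, with a median log2 ratio of 0.03 and against the same 5.63% and 9.08% of all genes. *Thbs1* and *Thbs3* stood at 0.16 and -0.21 where *Thbs4* stood at 1.79, and *Runx1* stood at -0.54 where *Runx2* stood at -1.28. Of 12 genes known to act upstream of *Scx*, *Sox9* or *Mkx*, 2 were at least 2-fold higher and 0 lower, beside those same shares of all genes, with a median of 0.41. These were *Ccn2*, a target of TGF-beta, at 109 against 36.3 CPM (1.59, 1.52 to 1.65), and *Bmp4*, at 12.6 against 1.21 CPM (3.38, 3.04 to 3.74).

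The genes most alike to each member were sought among 6644 candidates across 19 groups, each a cell class in 1 library, by the Pearson r of log2(CPM + 1). *Tnmd* was most like *Igfbp2* (0.89), *Fbln7* (0.86) and *Angptl1* (0.85), and *Cilp* most like *Fbln7* (0.90), *Eln* (0.89) and *Itgbl1* (0.85). *Thbs4* was most like *Eln* (0.79), *Mgp* most like *Ecm2* (0.95), *Mkx* most like the hyaluronan synthase gene *Has1* (0.82), *Sox9* most like *Sbsn* (0.94) and *Runx2* most like *Stk38* (0.81). The 19 groups share 3 libraries and their free RNA, and these values only order the candidates.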

How the data were processed

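The authors deposited whole-number UMI counts per gene and cell for each of the 3 libraries; per the labels these came from Chromium Single Cell 3′ v3.1 libraries, and the submitters' processing notes name Cell Ranger 6.0.0 and mm10. The members and lists were chosen with earlier results of these data known. Cells with at least 200 genes, 500 UMIs and at most 10% mitochondrial UMIs were kept. The number of cells then removed as doublets was set beforehand, at 0.5 of an assumed rate that grew with the number of barcodes. A nearest-neighbour score against simulated doublets only ranked which cells went. In this way 92, 1978 and 962 called doublets (2.07%, 9.17% and 6.65%) were removed, shares that are not measured doublet rates. Cells were clustered together (2000 variable genes, 30 components, Leiden resolution 1, leidenalg 0.10.2, scikit-learn 1.9.0, Python 3.11.15) without the members and related lists. Clusters were named "X-like" from fixed markers, with a limit of 0.6 of the best score of the class added after the clusters were seen. Counts were summed per class and library. Ratios needed 50 UMIs over both sides and have exact conditional binomial intervals; a 2-fold difference was the size reported. Code for the ratios was tested on simulated data. With 1 library per day there was no test. Named genes outside the members were the listed genes, the leading genes of clusters, the 10 genes of highest ratio in Tnmd-positive cells at 50 CPM or more in them, and the 3 genes most alike to a member. No column of other samples was used. RefSeq promoters (GRCm38.p6) were matched by symbol, coordinates of genes come from GENCODE vM21 (mm10), and no protein sequence was used here.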

Additional observations from a re-analysis of the deposited data

Results flagged for a closer look

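*Mgp* levels in CPM moved in opposite directions between the libraries of Day 7 and Day 14 in fibroblast-like cells and in cells of vessels. Day 14 over Day 7 gave a log2 ratio of 3.02 (2.99 to 3.05) in fibroblast-like cells, -0.53 (-0.87 to -0.19) in endothelial cell-like cells and -1.1 (-1.23 to -0.97) in pericyte-like cells. In endothelial cell-like cells the Day 7 level rests on 210 UMIs in 27 of 234 cells, and the share of cells with an *Mgp* UMI was higher on Day 14 (19.9%) than on Day 7 (11.5%), at median depths of 3754 and 6117 UMIs. The difference between the classes was not tested, since each day is 1 library. Day 14 holds 430 pericyte-like cells with a median of 3932 UMIs and Day 7 holds 186 with a median of 5549, and the part of this in the *Mgp* levels was not tested.

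Cluster 19 was left unnamed although it carried fibroblast markers, and it was counted among the other cells of Day 14. It held *Runx2* and *Sox9* above the levels of the fibroblast-like class as a whole. In its 725 cells of Day 14, *Runx2* had 123 UMIs, or 58.1 CPM (48.3 to 69.3), beside 21.9 CPM in the fibroblast-like class. *Sox9* had 93 UMIs there, or 43.9 CPM (35.5 to 53.8), beside 33.5 CPM. Parts of the class were as high or higher, with sub-cluster S12 at 58.1 CPM of *Runx2* and 68.5 CPM of *Sox9*.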

How the results depend on the processing

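Of 52 recomputed counts, 51 stayed within 1.5 times the reported count, under other filters on cells, doublets kept, another resolution, classes set per cell, other scalings, no UMI minimum, other thinning depths and, chosen after seeing the data, unnamed clusters of fibroblast markers joined to the class. The exception was the number of pairs at least 1.5 times their expectation, 0 in place of 4 with the expectation formed within sub-clusters. Under the other settings that number ran from 3 to 6. Members higher on Day 7 than on Day 3 numbered 6 in place of 4 with no UMI minimum. Members higher in fibroblast-like than in other cells numbered from 4 to 6 in place of 5. Of 230 recomputed ratios of single genes, with the setting of no UMI minimum left out since it cannot move a ratio already formed, 223 kept their sign. *Sox9* in fibroblast-like cells over other cells went from -0.259 to 0.104 with median-of-ratios scaling and to 0.0694 with the mean CPM per cell; the other 5 were *Sox9* for Day 7 over Day 3 and *Scx* for fibroblast-like over other cells, whose intervals span 0. The Day 14 over Day 7 ratios ranged from 4.47 to 4.96 for *Tnmd*, 2.20 to 2.57 for *Mkx*, 3.28 to 3.65 for *Cilp*, 1.75 to 1.97 for *Thbs4*, 2.84 to 3.26 for *Mgp* and -1.36 to -1.10 for *Runx2*. The ratios of fibroblast-like over other cells depended more on the setting, from 2.10 to 5.003 for *Tnmd*, 1.91 to 3.82 for *Mkx*, 1.58 to 4.67 for *Cilp*, 2.03 to 5.04 for *Thbs4*, 0.68 to 4.22 for *Mgp* and 0.31 to 1.44 for *Runx2*, lowest with doublets kept, with cells of up to 20% mitochondrial UMIs or, for *Runx2*, with the mean CPM per cell. Day 7 over Day 3 ranged from 3.75 to 4.65 for *Cilp*, 1.09 to 1.78 for *Thbs4* and 4.34 to 5.39 for *Mgp*. Median-of-ratios scaling moved the median of all genes from -0.18 to -0.00. No paired analysis was possible because each day has 1 library, and no library could be left out for the same reason. Values of *Scx*, *Comp* and *Cilp2* rest on few UMIs, each with 41 or fewer in the fibroblast-like cells of any library.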
